A study of Homo sapiens with 8 samples.

Results

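The transcript levels of 10 genes of base excision and direct alkylation repair were followed in LN229 cells, a human glioblastoma line, upon exposure to the methylating drug temozolomide (TMZ). The genes were taken by their symbols under a rule that uses no measured value, although the set was proposed with earlier results of these data known, and are 10 of the 26364 genes in the count file. They comprise the DNA glycosylases MPG, UNG and OGG1, the endonuclease APEX1, the break sensor PARP1, the scaffold XRCC1, the polymerase POLB, the ligase LIG3 and the demethylases ALKBH2 and ALKBH3. All 10 had enough counts to be tested, with 236 to 7849 reads per library.

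Total RNA of 8 libraries in 4 groups was sequenced to ask how the localization of Survivin, the product of BIRC5, affects the response to TMZ. Both clones stably expressed a fusion of Survivin and GFP from a plasmid and, per the labels, were grown with G418 for selection. Surv-GFP cells expressed the fusion with a functional nuclear export sequence and a mainly cytoplasmic localization, whereas in SurvNESmut-GFP cells the leucines at positions 96 and 98 were replaced by alanine (L96A and L98A) and the fusion was mainly nuclear. Cells of each clone were studied without drug and after 48 h in 50 µM TMZ, which had been dissolved in DMSO, and each of the 4 groups held 2 libraries, a and b. Only 1 stable clone stood for each construct, so that an effect of the mutation and a difference between clones cannot be told apart.

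TMZ places methyl groups on DNA bases, most of them as N-methylpurines. In base excision repair a glycosylase removes the damaged base, APEX1 cuts the strand at the abasic site, PARP1 senses the resulting break, and XRCC1 gathers POLB, which fills the gap, and LIG3, which seals the nick. Direct reversal leaves the base in place, since the dioxygenases ALKBH2 and ALKBH3 take the methyl group off, but only from some kinds of methylated bases. The pathway is known as a route by which glioma cells tolerate N-methylpurines.

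Promoters were looked up for the members in the RefSeq sequences of GRCh38.p14 as windows of 300 bases, 250 before and 50 after each start, and 9 of the 10 members, all but POLB, had an entry, UNG with 2 starts. The windows of UNG, PARP1 and ALKBH3, the 3 members with the largest TMZ effects in Surv-GFP cells, are shown. These 3 were chosen because their transcripts moved in opposite directions in that clone. The 2 UNG starts are known to give the isoforms of the enzyme for different compartments, and gene counts do not separate them. Capitals mark the GC box GGGCGG and the CCAAT box, each read on either strand, so that CCGCCC and ATTGG are the same boxes on the other strand. The windows lie at chr12:109097347-109097646 (plus strand) for the first UNG start, chr12:109097922-109098221 (plus strand) for the second, chr1:226408044-226408343 (minus strand) for PARP1 and chr11:43880581-43880880 (plus strand) for ALKBH3.
UNG, first start: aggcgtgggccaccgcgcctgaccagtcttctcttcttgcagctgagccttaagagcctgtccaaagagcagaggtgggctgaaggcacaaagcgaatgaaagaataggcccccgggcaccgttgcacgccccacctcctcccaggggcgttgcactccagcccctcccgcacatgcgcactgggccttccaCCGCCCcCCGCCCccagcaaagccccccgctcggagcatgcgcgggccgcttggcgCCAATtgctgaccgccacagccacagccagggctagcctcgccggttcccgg
UNG, second start: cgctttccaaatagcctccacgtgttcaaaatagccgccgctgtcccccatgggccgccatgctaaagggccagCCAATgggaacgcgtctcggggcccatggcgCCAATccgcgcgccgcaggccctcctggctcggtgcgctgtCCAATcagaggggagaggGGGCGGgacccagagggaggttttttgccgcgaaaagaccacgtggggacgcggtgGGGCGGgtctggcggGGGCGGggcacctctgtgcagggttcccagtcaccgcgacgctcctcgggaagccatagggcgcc
PARP1: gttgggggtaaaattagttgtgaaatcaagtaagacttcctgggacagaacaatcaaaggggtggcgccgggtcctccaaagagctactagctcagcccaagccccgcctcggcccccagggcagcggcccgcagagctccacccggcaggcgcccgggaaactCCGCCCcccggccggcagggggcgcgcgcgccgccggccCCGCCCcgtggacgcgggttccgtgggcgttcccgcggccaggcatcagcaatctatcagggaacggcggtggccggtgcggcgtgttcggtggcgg
ALKBH3: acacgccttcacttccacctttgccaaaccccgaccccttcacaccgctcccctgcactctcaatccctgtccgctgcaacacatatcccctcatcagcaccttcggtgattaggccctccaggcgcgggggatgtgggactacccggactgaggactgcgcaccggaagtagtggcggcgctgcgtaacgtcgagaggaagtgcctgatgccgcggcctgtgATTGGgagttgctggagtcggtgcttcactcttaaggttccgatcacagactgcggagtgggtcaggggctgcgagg
The UNG windows held 2 and 3 GC boxes and 1 and 3 CCAAT boxes, PARP1 held 2 GC boxes and no CCAAT box, and ALKBH3 held 1 CCAAT box and no GC box. Over the 10 windows of the members, 8 held a GC box and 7 a CCAAT box, against 45% and 34.6% of all 35116 RefSeq windows. The letters TTTGGCGC, TTTCGCGC or TTTCCCGC, searched for E2F, occurred in 0 of the 10 windows and in 2.74% of all, and TTTGAA or TTCGAA, the letters of the cell cycle homology region, in 2 of 10, the second UNG start and XRCC1, and in 16.4% of all. TTTCCCGC can share its last bases with a GC box on the other strand. A further form of these letters, TTTGCCGC, was not searched, and it stands in the second UNG window shown above. The 0 of 10 and the 2.74% do not count that form. A match describes these letters only, and the lack of a match does not show that a binding site is missing.

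The libraries held between 15826923 and 18861603 reads on genes. BIRC5 was read at 1133 ± 27.9 CPM (counts scaled to a common library size with TMM factors; mean ± SD, n = 2) in untreated Surv-GFP cells and 411 ± 5.22 in untreated SurvNESmut-GFP cells. These counts sum the plasmid and the endogenous transcript. CDKN1A, the p21 gene and a target of p53, served as a check of the exposure and rose from 81.9 ± 6.60 to 941 ± 47.8 CPM in Surv-GFP and from 118 ± 1.07 to 460 ± 44.6 CPM in SurvNESmut-GFP cells. VIM, NES and CD44, expressed by many glioma lines, lay between 539 and 3740 CPM in the group means, while the astrocyte gene GFAP stayed under 1 CPM in the group means. The summed level of 9 glial and glioma markers was 6130 to 6220 CPM in untreated and 3910 to 4010 CPM in exposed Surv-GFP libraries, and 4680 to 4870 and 4140 to 4270 CPM in SurvNESmut-GFP libraries. Most of this sum was VIM. Upon TMZ, VIM, NES, SOX2, S100B and FABP7 fell in both clones, and OLIG2 fell in Surv-GFP cells (log2 fold change -0.98). In Surv-GFP and SurvNESmut-GFP the values were -0.66 and -0.27 for VIM, -0.74 and -0.81 for SOX2, and -1.56 and -1.28 for S100B. EGFR went the other way and rose in both clones (0.29 and 0.72), as did CD44 in SurvNESmut-GFP cells (0.17). Before exposure, S100B and FABP7 stood at 777 and 175 CPM in Surv-GFP against 40.6 and 15.1 CPM in SurvNESmut-GFP cells. The summed level of the 2 endothelial and of the 2 epithelial markers was at most 0.389 and 0.378 CPM in any library, and that of the 3 leukocyte markers 12.0 to 21.4 CPM, nearly all from CD68, with the defining leukocyte genes PTPRC and CD3E at group means of at most 0.0877 and 0.0276 CPM. Of the 3 neuronal markers, SYT1 rose from 42.8 to 160.5 CPM upon TMZ in Surv-GFP and from 33.5 to 50.0 CPM in SurvNESmut-GFP cells, SNAP25 fell from 18.7 to 9.33 and from 18.4 to 12.7 CPM, and RBFOX3 had 1 read in all 8 libraries together. Their summed level was 60.3 to 62.8 CPM in untreated and 169 to 171 CPM in exposed Surv-GFP libraries, and 50.8 to 52.9 and 60.1 to 65.2 CPM in SurvNESmut-GFP libraries, and the part of this and of the glial markers in the results below was not tested. The libraries are bulk samples, in which fewer cells of a type and less RNA per cell cannot be told apart.

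Upon TMZ, 3 of the 10 members rose and 3 fell in Surv-GFP cells, while 1 rose and 4 fell in SurvNESmut-GFP cells. Calls were made at a Benjamini-Hochberg adjusted p of 0.05 over all 14201 tested genes, with the quasi-likelihood F test of edgeR. Of all these genes, 30.1% rose and 28.9% fell in Surv-GFP and 18.6% rose and 19.1% fell in SurvNESmut-GFP cells. The members' shares were thus close to the background in Surv-GFP. In SurvNESmut-GFP the 4 falls of 10 were above it, but they became 3 with library size alone, where APEX1 was not called. APEX1 also lost its call when either untreated SurvNESmut-GFP library was left out. The 1 rise in SurvNESmut-GFP became 2 with library size alone or without the exposed replicate b, and 0 without replicate a of either group. The median log2 fold change of the members was -0.09 for Surv-GFP and -0.01 for SurvNESmut-GFP cells, against 0.00 over all genes in each clone. Without regard to sign, the median size was 0.42 in Surv-GFP against 0.32 over all genes, and 0.18 in SurvNESmut-GFP against 0.20. The members are described below in the order of the pathway.

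**Figure D1:**
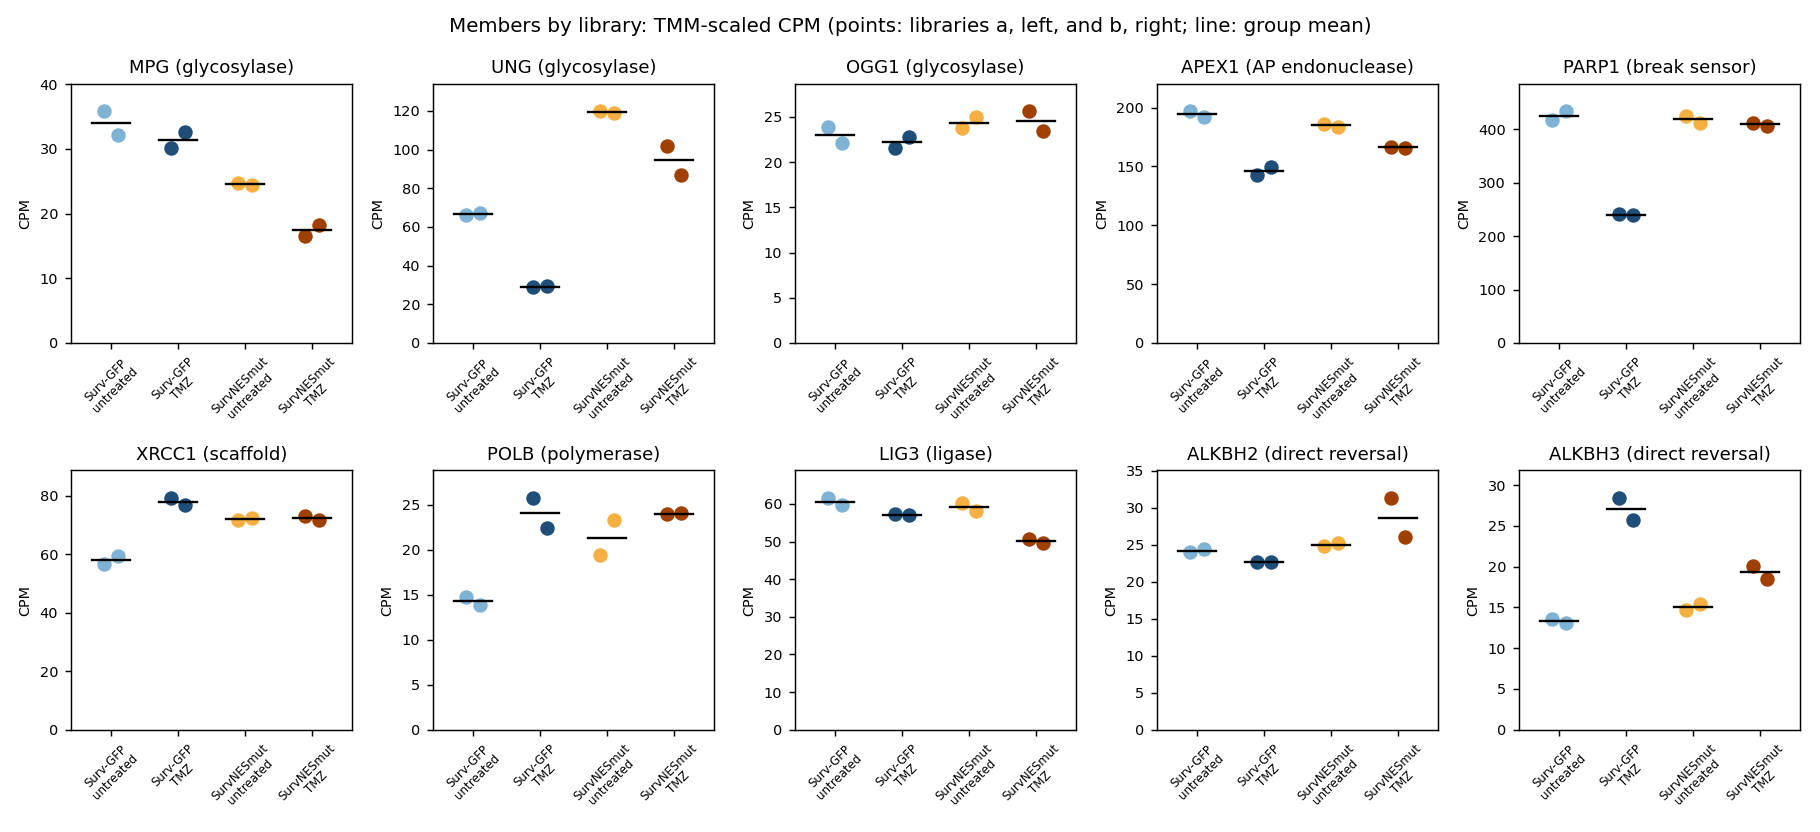
Each panel plots 1 member, with CPM on the y axis from 0 and the 4 groups on the x axis; points are the libraries a (left) and b (right) and the line is the group mean. UNG and PARP1 were lowest in TMZ-exposed Surv-GFP libraries, ALKBH3 was highest there, and OGG1 lay between 21.6 and 25.6 CPM in all 8 libraries.

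Among the glycosylases, UNG, which removes uracil from DNA, had the largest fall. It was read at 66.1 and 67.2 CPM in the untreated Surv-GFP libraries a and b and at 28.7 and 29.6 CPM upon TMZ. In SurvNESmut-GFP cells the values were 120 and 119 CPM untreated and 102 and 87.0 CPM upon TMZ. The groups did not overlap in either clone, and the TMZ-exposed SurvNESmut-GFP libraries lay above even the untreated Surv-GFP libraries. UNG fell 2.29-fold in Surv-GFP (log2 fold change -1.19 ± 0.07 SE, adjusted p = 6.46e-10) and 1.26-fold in SurvNESmut-GFP cells (-0.34 ± 0.06, adjusted p = 4.30e-04). The second of these values rested on libraries that differed, and was -0.22 once the exposed replicate b was left out.

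MPG, the glycosylase that excises N-methylpurines, fell in SurvNESmut-GFP cells and was not called in Surv-GFP cells. In Surv-GFP cells it was read at 35.8 and 32.2 CPM untreated and at 30.2 and 32.6 CPM upon TMZ. The corresponding values in SurvNESmut-GFP cells were 24.7 and 24.3 CPM and 16.5 and 18.3 CPM. The Surv-GFP groups overlapped and the SurvNESmut-GFP groups did not. MPG thus fell 1.41-fold in SurvNESmut-GFP cells (-0.50 ± 0.09, adjusted p = 4.01e-04), while in Surv-GFP its log2 fold change was -0.12 with a 95% interval of -0.28 to 0.05 (adjusted p = 0.224). In the annotation 27.3% of the merged exon bases of MPG overlap NPRL3 on the other strand, and no source used here says whether the counts used strand. NPRL3, a regulator of growth signalling, was read at 19.8, 20.8, 17.4 and 20.6 CPM in the means of untreated and TMZ-exposed Surv-GFP and of untreated and TMZ-exposed SurvNESmut-GFP cells, and was higher upon TMZ in SurvNESmut-GFP cells by 0.25 on the log2 scale, where MPG was lower.

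OGG1, the glycosylase for oxidised guanine, passed the test in neither clone. Its 8 libraries lay between 21.6 and 25.6 CPM, and the groups overlapped in both clones. The 95% interval of its log2 fold change upon TMZ was -0.23 to 0.12 in Surv-GFP (adjusted p = 0.609) and -0.17 to 0.19 in SurvNESmut-GFP cells (adjusted p = 0.939). Of its exon bases 29% overlap neighbours on the other strand, most of them CAMK1, whose log2 fold changes of 0.01 and 0.22 did not pass the test either.

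APEX1, which incises abasic sites, fell in both clones. Surv-GFP libraries had 197 and 192 CPM untreated and 143 and 150 CPM upon TMZ. SurvNESmut-GFP libraries had 186 and 184 CPM untreated and 167 and 165 CPM upon TMZ. No groups overlapped, and the fall was 1.33-fold in Surv-GFP (-0.41 ± 0.05, adjusted p = 1.60e-06) and 1.11-fold in SurvNESmut-GFP cells (-0.15 ± 0.05, adjusted p = 0.0178). The second call was lost with library size alone as scaling (adjusted p = 0.0603) and without the untreated SurvNESmut-GFP replicate a (0.0964) or b (0.062).

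PARP1, which binds strand breaks and builds chains of ADP-ribose, fell in Surv-GFP cells and was not called in SurvNESmut-GFP cells. Its levels in Surv-GFP were 417 and 433 CPM untreated and 241 and 239 CPM upon TMZ. In SurvNESmut-GFP cells it was read at 425 and 412 CPM untreated and at 411 and 407 CPM upon TMZ. The exposed Surv-GFP libraries lay far below all others, and the exposed SurvNESmut-GFP libraries just below the untreated ones. The drop in Surv-GFP was 1.77-fold (-0.83 ± 0.05, adjusted p = 2.33e-10), and the 95% interval in SurvNESmut-GFP cells was -0.13 to 0.06 (adjusted p = 0.61). No exon of another gene overlaps PARP1 in the annotation.

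XRCC1, the scaffold without enzymatic activity that is drawn to ADP-ribose chains, rose in Surv-GFP cells. It went from 56.9 and 59.5 CPM untreated to 79.2 and 76.9 CPM upon TMZ. In SurvNESmut-GFP cells the values were 71.9 and 72.5 CPM untreated and 73.3 and 71.7 CPM upon TMZ, and these groups overlapped. The rise in Surv-GFP was 1.34-fold (0.42 ± 0.05, adjusted p = 3.44e-06), and in SurvNESmut-GFP the interval was -0.11 to 0.12 (adjusted p = 0.946). The untreated SurvNESmut-GFP level lay between those of untreated and TMZ-exposed Surv-GFP cells. In the annotation 24% of the exon bases of XRCC1 overlap other loci.

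POLB, the gap-filling polymerase, rose in Surv-GFP cells as XRCC1 did. It was read at 14.7 and 13.8 CPM in untreated and at 25.7 and 22.4 CPM in TMZ-exposed Surv-GFP libraries. SurvNESmut-GFP libraries had 19.4 and 23.3 CPM untreated and 23.9 and 24.0 CPM upon TMZ. The groups were apart in both clones, although in SurvNESmut-GFP by less than the gap between the untreated libraries. POLB rose 1.69-fold in Surv-GFP (0.76 ± 0.10, adjusted p = 1.06e-05), and in SurvNESmut-GFP its log2 fold change was 0.17 with an interval of -0.04 to 0.38 (adjusted p = 0.205). The latter value was 0.04 without the untreated replicate a and 0.31 without the untreated replicate b, and was not called in either case.

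LIG3, the ligase that works with XRCC1 and also serves mitochondrial DNA, fell in SurvNESmut-GFP cells by a small amount. Its values there were 60.3 and 58.2 CPM untreated and 50.7 and 49.7 CPM upon TMZ, a 1.18-fold fall (-0.24 ± 0.06, adjusted p = 0.0034). In Surv-GFP cells it was read at 61.5 and 59.6 CPM untreated and at 57.4 and 56.9 CPM upon TMZ, with an interval of -0.20 to 0.03 (adjusted p = 0.209). The exposed libraries were the lower ones in both clones, without overlap. Exon bases of RFFL, on the other strand, overlap 29.1% of those of LIG3, and RFFL itself lay between 4.57 and 6.52 CPM in the group means. RFFL rose by 0.52 on the log2 scale in Surv-GFP (adjusted p = 0.0094), where LIG3 was not called.

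Of the demethylases, ALKBH3, which prefers single-stranded DNA, rose in both clones. It was read at 13.6 and 13.0 CPM in untreated and at 28.4 and 25.7 CPM in TMZ-exposed Surv-GFP libraries. In SurvNESmut-GFP cells it went from 14.7 and 15.5 CPM to 20.1 and 18.5 CPM. The groups did not overlap, and the rise was 2.04-fold in Surv-GFP (1.03 ± 0.09, adjusted p = 6.50e-08) and 1.28-fold in SurvNESmut-GFP cells (0.36 ± 0.10, adjusted p = 0.00716). The call in SurvNESmut-GFP was lost without the untreated replicate a (adjusted p = 0.0644) or the TMZ-exposed replicate a (0.0524).

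ALKBH2, its relative for double-stranded DNA, was read at 24.0 and 24.3 CPM untreated and at 22.6 and 22.6 CPM upon TMZ in Surv-GFP cells. Levels with the mutant fusion were 24.8 and 25.2 CPM untreated and 31.3 and 26.0 CPM upon TMZ. Although no groups overlapped, it passed the test in neither clone, with intervals of -0.28 to 0.10 (adjusted p = 0.387) and 0.01 to 0.38 (adjusted p = 0.0848). The second of these was called with library size alone (adjusted p = 0.0441) and without the TMZ-exposed replicate b (0.00419). ALKBH2 and UNG are neighbours on chromosome 12, transcribed away from each other, and the fall of UNG was not accompanied by a called change of ALKBH2 in either clone.

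**Figure D2:**
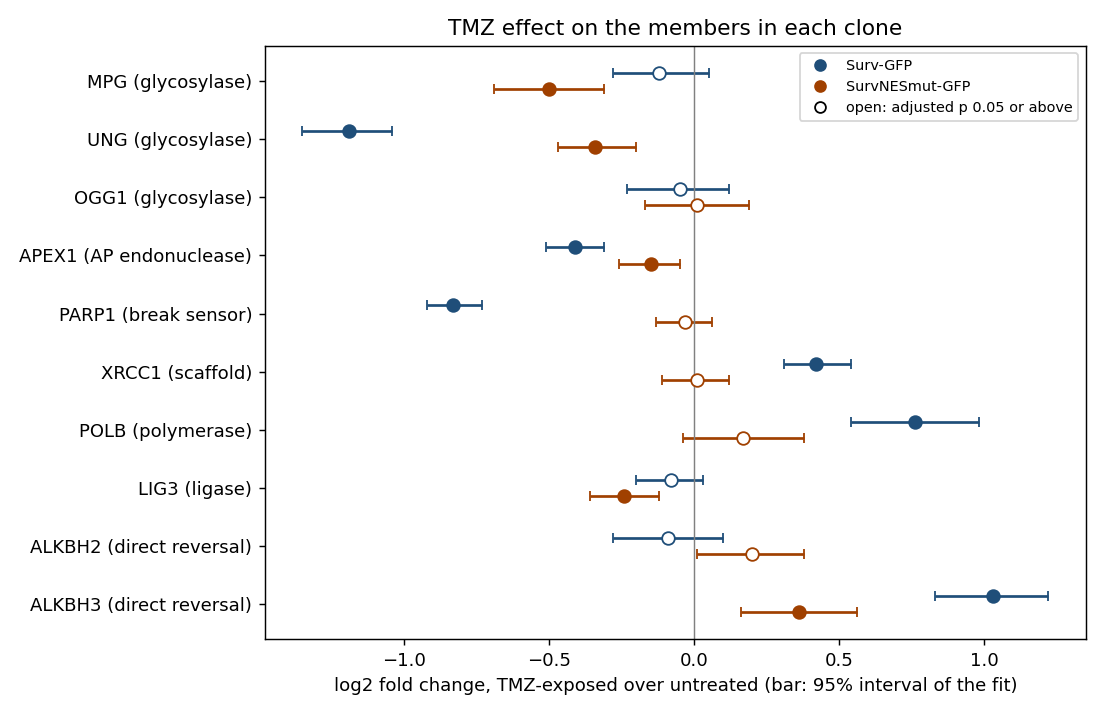
The log2 fold change upon TMZ is on the x axis and the members are on the y axis, in blue for Surv-GFP and in brown for SurvNESmut-GFP; bars are the 95% intervals of the fit and open points had an adjusted p of 0.05 or above. In Surv-GFP the values ran from -1.19 (UNG) to 1.03 (ALKBH3), in SurvNESmut-GFP from -0.50 (MPG) to 0.36 (ALKBH3).

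To compare the clones directly, the difference between their TMZ effects was tested as SurvNESmut-GFP minus Surv-GFP. It was positive for 3 members and negative for 4, where 16.6% and 20.2% of all genes were called in these directions. The median size without regard to sign was 0.40 for the members and 0.28 over all genes. The effect was higher in SurvNESmut-GFP for UNG (0.86 ± 0.10, adjusted p = 3.79e-06), PARP1 (0.79 ± 0.07, adjusted p = 1.34e-07) and APEX1 (0.26 ± 0.07, adjusted p = 0.00732), the 3 members that fell in Surv-GFP. It was lower for ALKBH3 (-0.67 ± 0.13, adjusted p = 8.62e-04), POLB (-0.59 ± 0.15, adjusted p = 0.00444) and XRCC1 (-0.42 ± 0.07, adjusted p = 3.61e-04), the 3 that rose in Surv-GFP. For all 6, the value in SurvNESmut-GFP thus lay closer to no change. These 6 are the members called in Surv-GFP. Over all genes the median size of the TMZ effect was smaller in SurvNESmut-GFP too, 0.20 against 0.32.

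MPG was the only member called in the difference whose larger effect was in SurvNESmut-GFP cells (-0.38 ± 0.12, adjusted p = 0.0202). This call was lost with DESeq2 (adjusted p = 0.0914) and upon leaving out replicate b of untreated (0.0871) or exposed Surv-GFP (0.108) or replicate a of untreated (0.0626) or exposed SurvNESmut-GFP cells (0.0648). The effects on LIG3, OGG1 and ALKBH2 were not shown to differ, with intervals of -0.32 to 0.01, -0.19 to 0.31 and 0.03 to 0.56 and adjusted p values of 0.142, 0.716 and 0.0782. The difference for ALKBH2 was called with library size alone (adjusted p = 0.0378), with a filter of 1 CPM in 2 libraries (0.0427) and upon leaving out replicate b of exposed SurvNESmut-GFP cells (0.0057).

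The clones also differed before exposure. Without TMZ, SurvNESmut-GFP cells exceeded Surv-GFP cells in 3 members and lay below them in 1, against 34.7% and 29.4% of all genes. UNG was 1.79-fold higher (0.84 ± 0.06, adjusted p = 6.34e-09), and POLB (0.58 ± 0.11, adjusted p = 1.52e-04) and XRCC1 (0.31 ± 0.05, adjusted p = 7.95e-05) were higher too, whereas MPG was 1.39-fold lower (-0.47 ± 0.08, adjusted p = 9.14e-05). The intervals of PARP1 (-0.12 to 0.07), LIG3 (-0.15 to 0.08), OGG1 (-0.09 to 0.26), ALKBH2 (-0.14 to 0.24) and ALKBH3 (-0.03 to 0.39) held 0. For APEX1, at -0.07 and an adjusted p of 0.192, a lower level in SurvNESmut-GFP was called with library size alone (adjusted p = 0.0246), with a filter of 1 CPM in 2 libraries (0.0412), with only the 4 libraries compared (0.0348) and without either TMZ-exposed SurvNESmut-GFP library (0.0331 and 0.0322).

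Upon TMZ, SurvNESmut-GFP cells exceeded Surv-GFP cells in 4 members and lay below them in 3, where 34.5% and 34.7% of all genes were called. UNG stood 3.24-fold higher (1.70 ± 0.07, adjusted p = 4.72e-12) and PARP1 1.70-fold higher (0.77 ± 0.05, adjusted p = 3.55e-10), followed by ALKBH2 (0.34 ± 0.09, adjusted p = 0.00266) and APEX1 (0.18 ± 0.05, adjusted p = 0.00304). The lower members were MPG, 1.81-fold (-0.85 ± 0.09, adjusted p = 2.54e-07), ALKBH3, 1.40-fold (-0.49 ± 0.09, adjusted p = 1.11e-04), and LIG3, 1.14-fold (-0.19 ± 0.06, adjusted p = 0.00814). POLB, which differed before exposure, was at -0.01 with an interval of -0.22 to 0.20. The call for APEX1 was lost without the TMZ-exposed Surv-GFP replicate a (0.11, adjusted p = 0.133), the call for ALKBH2 without replicate a of exposed SurvNESmut-GFP cells (0.16, adjusted p = 0.145), and XRCC1, at -0.11 and an adjusted p of 0.0813, was called without that same library (0.0306). The 5 comparisons share libraries and are therefore not independent of each other.

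Ratios of raw counts within a library do not depend on the scaling. They do depend on the lengths of the genes, so a ratio is compared between libraries and not read as a relative level. The pairs were chosen with the values above known and are given as a description. The ratio of MPG, which opens repair of N-methylpurines, to POLB was 2.44 and 2.33 in untreated and 1.17 and 1.46 in TMZ-exposed Surv-GFP libraries. In SurvNESmut-GFP libraries it was 1.28 and 1.04 untreated and 0.689 and 0.761 upon TMZ. It was lower upon TMZ in both clones. The log2 fold changes of MPG and POLB were -0.12 and 0.76 in Surv-GFP and -0.50 and 0.17 in SurvNESmut-GFP cells. Only POLB was called in Surv-GFP and only MPG in SurvNESmut-GFP cells.

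The ratio of PARP1 to XRCC1 was 7.34 and 7.28 in untreated Surv-GFP libraries and 3.04 and 3.11 upon TMZ. In SurvNESmut-GFP libraries it was 5.90 and 5.68 untreated and 5.61 and 5.67 upon TMZ, so that the untreated and exposed libraries of this clone nearly met. ALKBH3 stood at 0.566 and 0.535 times the count of ALKBH2 in untreated and at 1.26 and 1.14 times in TMZ-exposed Surv-GFP libraries. In SurvNESmut-GFP libraries it stood at 0.593 and 0.614 times untreated and at 0.641 and 0.714 times upon TMZ. ALKBH3 counts thus exceeded those of ALKBH2 in the TMZ-exposed Surv-GFP libraries and in no others, which does not compare their levels. In exposed Surv-GFP cells ALKBH3 had 11.4 and ALKBH2 9.88 CPM per kb of merged exon. Per kb of the longest transcript the order was reversed, with 17.4 and 19.5.

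Levels can be compared between genes only per length, here as CPM per kb of merged exon in GENCODE 29. In untreated Surv-GFP cells the order ran from APEX1 with 103 ± 1.72 (mean ± SD, n = 2) and PARP1 with 59.3 ± 1.59 over UNG with 26.0 ± 0.320, MPG with 20.5 ± 1.53, XRCC1 with 16.8 ± 0.542 and ALKBH2 with 10.5 ± 0.119 to ALKBH3 with 5.60 ± 0.156, LIG3 with 4.69 ± 0.104, POLB with 3.47 ± 0.153 and OGG1 with 2.63 ± 0.139. Each neighbour in this order differed by more than the sum of the SDs. APEX1 was first, PARP1 second and OGG1 last in all 4 groups. Upon TMZ in Surv-GFP cells UNG dropped from rank 3 to rank 6, with 11.4 ± 0.232, and did not differ from ALKBH3 with 11.4 ± 0.799 beyond the spread.

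In SurvNESmut-GFP cells UNG kept rank 3, with 46.4 ± 0.273 CPM per kb untreated and 36.8 ± 4.05 upon TMZ. MPG moved from rank 5 with 14.8 ± 0.166 to rank 6 with 10.5 ± 0.765 upon TMZ, a level that did not differ from that of ALKBH2, 12.5 ± 1.64, beyond the spread. POLB with 5.20 ± 0.685 and LIG3 with 4.59 ± 0.116 did not differ beyond the spread in untreated SurvNESmut-GFP cells. The order depended on the length used. Per kb of the longest transcript PARP1 exceeded APEX1 in TMZ-exposed SurvNESmut-GFP cells, with 103 ± 0.764 against 92.1 ± 0.461. In untreated SurvNESmut-GFP cells PARP1 with 106 ± 2.26 and APEX1 with 103 ± 0.987 did not differ beyond the spread. POLB held rank 6 or 7 in all groups by this length. The summed level of the 10 members, largely PARP1 and APEX1, was 910 to 917 CPM in untreated and 678 CPM in both TMZ-exposed Surv-GFP libraries, and 958 to 970 and 891 to 921 CPM in the SurvNESmut-GFP libraries.

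**Figure D3:**
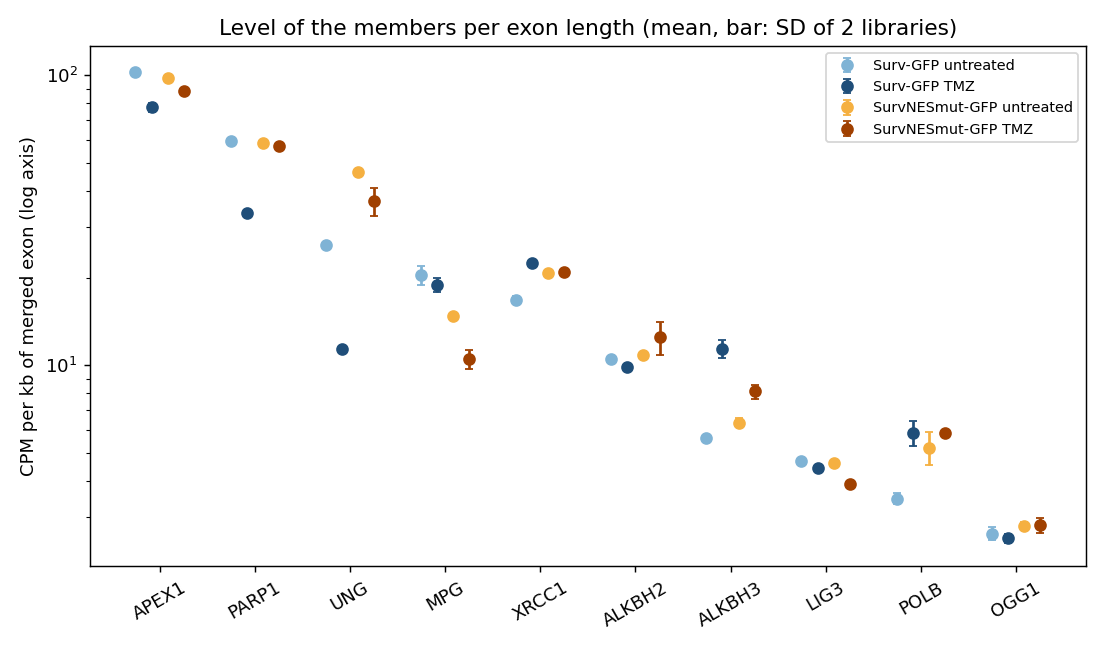
CPM per kb of merged exon is on the y axis, which is logarithmic, for the 10 members on the x axis; points are group means in 4 colours and bars the SD of 2 libraries. APEX1 was first and OGG1 last in every group, and UNG spanned 11.4 to 46.4 CPM per kb.

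UNG is known to be made mainly in dividing cells, and genes of the cell cycle moved in the same comparisons. Of 12 S-phase genes, 1 rose and 10 fell upon TMZ in Surv-GFP cells (median log2 fold change -0.61), and 2 rose and 6 fell in SurvNESmut-GFP cells (median -0.12). Their effect was higher in SurvNESmut-GFP for 10 and lower for 1 of the 12, with a median difference of 0.43. The summed level of these 12 genes ranged from 2610 to 2740 CPM in untreated and from 1980 to 2030 CPM in TMZ-exposed Surv-GFP libraries, and from 3130 to 3140 and 2850 to 2920 CPM in SurvNESmut-GFP libraries. Of 8 genes of G2 and mitosis all 8 fell in each clone, with medians of -1.58 and -1.0, and their sum went from 2540 to 2770 down to 937 to 954 CPM in Surv-GFP and from 3220 to 3280 down to 1660 to 1690 CPM in SurvNESmut-GFP libraries. The part of the cell cycle in the members' changes was not tested.

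The count of UNG relative to that of PCNA, the sliding clamp of DNA synthesis, was 0.209 and 0.205 in untreated and 0.162 and 0.180 in TMZ-exposed Surv-GFP libraries. In SurvNESmut-GFP libraries it was 0.288 and 0.266 untreated and 0.312 and 0.246 upon TMZ. The ratio was lower upon TMZ in Surv-GFP without overlap, while the exposed SurvNESmut-GFP libraries lay on either side of the untreated ones. Every SurvNESmut-GFP library had a higher ratio than every Surv-GFP library.

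A wider list of the pathway, with 47 symbols in 5 roles, matched 45 genes in the file, of which 44 were tested. Upon TMZ 17 rose and 14 fell in Surv-GFP cells, and 12 rose and 2 fell in SurvNESmut-GFP cells, with medians of 0.05 and 0.07. The 12 rises became 7 without the untreated SurvNESmut-GFP replicate b and 8 with DESeq2, and the 2 falls became 1 with DESeq2, library size alone, no filter, the replicate block, only the 4 libraries compared, and upon leaving out any 1 library but the untreated SurvNESmut-GFP replicate a. The difference between the effects was positive for 11 and negative for 7. MGMT, which takes methyl groups off guanine oxygen and is known to decide the response to TMZ, had 0 counts in all 8 libraries, which at these depths allows a level of up to 0.159 to 0.190 CPM. This limit, like every interval of a count, covers counting error only.

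Of the 8 other glycosylases, 3 rose and 3 fell in Surv-GFP and 2 rose and 0 fell in SurvNESmut-GFP cells. TDG, which removes thymine from mismatches, rose by 0.83 ± 0.07 (log2, SE) and SMUG1, a uracil glycosylase, by 0.28 ± 0.06 in Surv-GFP, while NEIL3 and NTHL1, glycosylases for oxidised bases, were at -0.56 ± 0.08 and -0.32 ± 0.08. MUTYH, which acts opposite oxidised guanine, and NEIL2 rose in SurvNESmut-GFP cells by 0.45 ± 0.07 and 0.33 ± 0.11. Among 5 tested genes of direct reversal and its helicase complex 3 rose and 1 fell in Surv-GFP and 2 rose and 0 fell in SurvNESmut-GFP cells. The helicase ASCC3, a partner of ALKBH3, rose by 0.68 ± 0.06 in Surv-GFP and by 0.24 ± 0.05 in SurvNESmut-GFP cells. Its complex member ASCC2 rose by 0.60 ± 0.06 and 0.33 ± 0.06 in the same order. FTO, an RNA demethylase of the same family, was at -0.32 ± 0.05 in Surv-GFP cells.

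Of the 7 genes of end processing, 3 rose and 1 fell in Surv-GFP and 3 rose and 0 fell in SurvNESmut-GFP cells. APTX, which clears failed ligation ends and binds XRCC1, rose by 1.03 ± 0.07 and 0.41 ± 0.08, and POLL, a relative of POLB, by 0.57 ± 0.08 and 0.29 ± 0.09 in the same order. TDP1, a phosphodiesterase for protein-blocked ends, was at -0.48 ± 0.08 in Surv-GFP cells. Of the 8 genes of ADP-ribosylation 4 rose and 1 fell in Surv-GFP and 2 rose and 1 fell in SurvNESmut-GFP cells. ADPRHL2, a hydrolase that removes ADP-ribose, rose by 0.66 ± 0.07 and 0.22 ± 0.06 and PARP3 by 0.42 ± 0.09 and 0.28 ± 0.08, whereas C4orf27, the PARP1 cofactor HPF1, was at -0.41 ± 0.07 and -0.20 ± 0.08. The second of these, with an adjusted p of 0.0462, is among the 2 falls of the wider list whose count dropped to 1 under the settings named above.

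Long-patch synthesis and ligation was the role with more falls than rises in Surv-GFP cells, 8 against 4 of 16 genes, while 3 rose and 1 fell in SurvNESmut-GFP cells. PCNA was at -0.92 ± 0.06 and -0.34 ± 0.06, and LIG1, the replicative ligase, at -0.38 ± 0.05 in Surv-GFP. The polymerase subunits POLD4 and POLE3 rose by 0.54 ± 0.07 and 0.18 ± 0.05 in Surv-GFP, and POLD3 and the clamp loader subunit RFC1 by 0.40 ± 0.06 and 0.25 ± 0.05 in SurvNESmut-GFP cells. In untreated cells 11 of the 16 were higher and 1 was lower in SurvNESmut-GFP, and upon TMZ 13 were higher and 1 was lower. Over the whole list the clone comparison gave 20 higher and 10 lower in untreated and 23 higher and 12 lower in TMZ-exposed cells. The background shares of all these counts are those given above for the same comparisons.

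**Figure D4:**
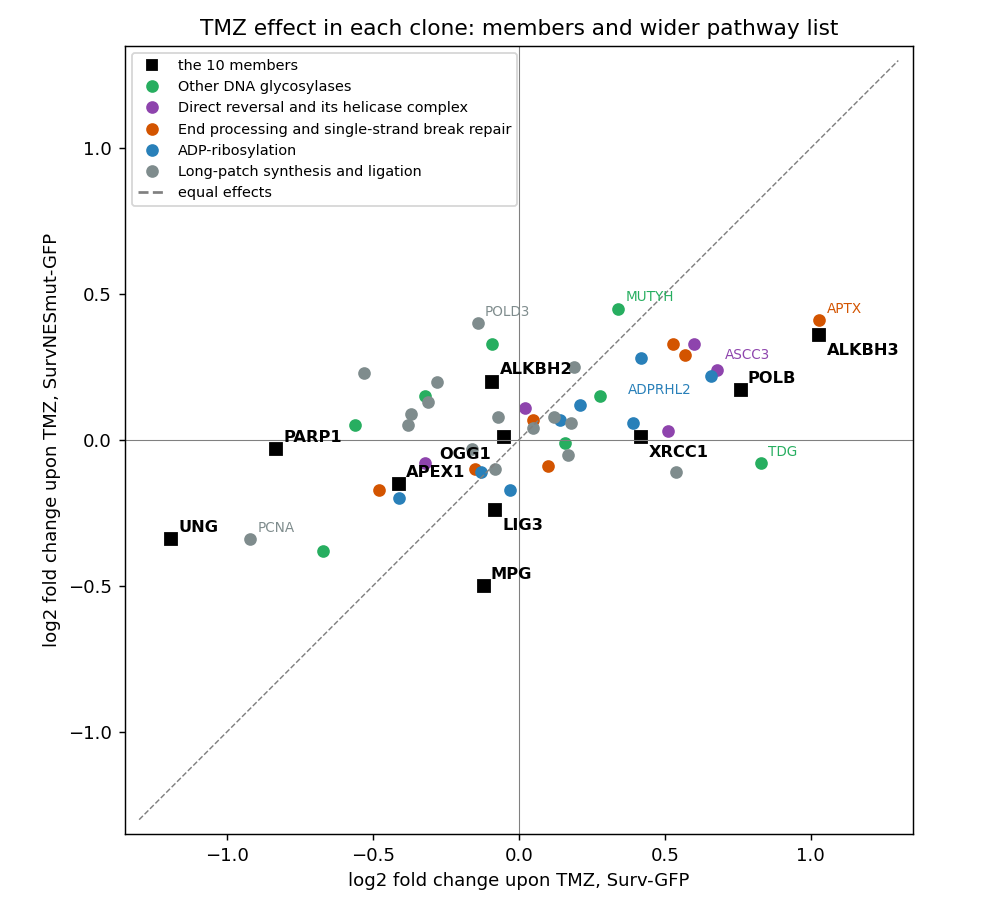
The log2 fold change upon TMZ in Surv-GFP is on the x axis and that in SurvNESmut-GFP on the y axis; black squares are the 10 members, coloured points the 44 tested genes of the wider list by role, and the dashed line marks equal effects. UNG (-1.19 and -0.34) and ALKBH3 (1.03 and 0.36) lie at the ends of the x axis, beside PCNA (-0.92 and -0.34) and APTX (1.03 and 0.41), and MPG (-0.12 and -0.50) lies lowest.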

How the data were processed

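Total RNA of 8 LN229 libraries, 4 groups of 2 by the sample labels, had been sequenced on the Illumina platform. The authors deposited raw read counts, in whole numbers, for each gene symbol. The submitters' processing notes name STAR 2.5.0b, Cufflinks 2.2.1 and edgeR without their roles, and no source used here names the counting program, annotation, strandedness or genome build. Rows for reads with no feature (11.2 to 14.3% of a library) or an ambiguous feature (1.19 to 1.28%) were left out. The authors' 5 comparison tables, which hold edgeR's fold changes (log2), mean levels, test statistics and p-values, were not used.

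In R 4.3.3, edgeR 4.0.16 fitted 4 group means to all 8 libraries, with TMM factors (0.978 to 1.019), edgeR's filter by group (14201 genes kept) and the quasi-likelihood F test in its earlier form; the common biological coefficient of variation was 4.09%. SEs were derived from F, and 95% intervals from the SE and the residual and prior degrees of freedom of the test. The script was tested on simulated data. Alternatives were DESeq2 1.42.0, other scalings, filters and priors, the replicate letter as a block, fits limited to the 4 libraries of a comparison, and fits that left out a library. The figure legends of the study speak of independent biological replicates run in technical duplicates, but neither they nor the labels say which of these the letters a and b are, so p-values measure the spread between these libraries, which may be technical. Libraries a and b of a group differed by more than sampling noise. The chi-square per degree of freedom was 5.51 in TMZ-exposed SurvNESmut-GFP cells and 2.15 to 2.57 in the other groups.

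The proposal of the members, the lists, the named pathway genes (per role and clone at most the 2 with the smallest p in each direction) and the ratios were made with earlier results of these data known. Exon lengths and overlaps came from GENCODE 29, whose coordinates are not printed, and promoters from RefSeq. Figures were drawn with matplotlib 3.10.9.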

Additional observations from a re-analysis of the deposited data

Results flagged for a closer look

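In the following results the effect of TMZ differed between the clones by edgeR's test of the difference itself (SurvNESmut-GFP minus Surv-GFP, log2, adjusted p under 0.05, 2 libraries per group). Only members and genes named in the report are listed. Among the members the difference was -0.38 for MPG, 0.26 for APEX1, -0.42 for XRCC1, 0.79 for PARP1, -0.59 for POLB, 0.86 for UNG and -0.67 for ALKBH3. The difference for MPG is the least firm of these, since 5 alternatives each brought its adjusted p above 0.05. Among the other glycosylases it was -0.91 for TDG, 0.61 for NEIL3 and 0.46 for NTHL1, and in direct reversal -0.44 for ASCC3, -0.26 for ASCC2 and 0.24 for FTO. In end processing and ADP-ribosylation it was -0.62 for APTX, 0.31 for TDP1 and -0.44 for ADPRHL2. Among the genes of long-patch synthesis it was -0.65 for POLD4, 0.58 for PCNA, 0.42 for LIG1 and 0.54 for POLD3. CDKN1A had a difference of -1.56 and BIRC5 of -1.48, the latter with a rise in Surv-GFP and a fall in SurvNESmut-GFP cells.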

How the results depend on the processing

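Of 840 alternative values of the members, 806 kept the direction and the side of the threshold, 12 lost a call, 11 gained a call and 11 changed sign; the causes were not tested. The sign changes all concern values without a call. With libraries left out in turn, the TMZ effect on OGG1 ranged from -0.12 to 0.00 in Surv-GFP and from -0.05 to 0.08 in SurvNESmut-GFP, with a difference of 0.00 to 0.13, and that on XRCC1 in SurvNESmut-GFP from -0.01 to 0.03. The clone difference ranged from -0.06 to 0.01 for PARP1 untreated and from -0.11 to 0.06 for POLB upon TMZ. With library size alone, PARP1 in SurvNESmut-GFP was at 0.00 and the untreated clone difference of ALKBH2 at -0.01. The count of members that fell in SurvNESmut-GFP went from 4 to 3 under that scaling. One of these falls, that of APEX1, also lost its call when either untreated SurvNESmut-GFP library was left out. The count of members that rose in SurvNESmut-GFP was 2 with library size alone and 0 to 2 with a library left out, 0 without the untreated or the TMZ-exposed replicate a and 2 without the TMZ-exposed replicate b. The 12 rises of the wider list in SurvNESmut-GFP became 7 to 12, 7 without the untreated replicate b, and its 2 falls became 1 with library size alone, no filter, DESeq2, the replicate block or only the 4 libraries compared, and 1 to 2 with a library left out. The count of members lower in untreated SurvNESmut-GFP was 2 with library size alone, the filter of 1 CPM in 2 libraries or only the 4 libraries compared, and 1 to 2 with a library left out. Deviations from the group means correlated at -0.098 to 0.097 between groups. Counting noise enters these deviations too, so the values cannot decide whether libraries of the same letter shared a small shift. Whether such libraries were prepared together is not known. The replicate block changed no call of a member. At 236 to 7849 reads per member and library, counting error limits POLB, ALKBH3, OGG1, ALKBH2 and MPG most.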
